A study of Mus musculus with 9 samples.

Results

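The cardiac myosin heavy and light chains were examined in cultured ventricular cells of the mouse embryo after siRNA against either of the de novo DNA methyltransferases Dnmt3a and Dnmt3b. The 8 genes were taken by their symbols: the heavy chains Myh6, Myh7 and Myh7b, the light chains Myl2, Myl3, Myl4 and Myl7, and the kinase Mylk3. They are 8 of the 43629 genes in the count tables, each with 1 identifier, and all 8 passed the filter on low counts. Cells came from ventricles of CD-1 embryos, an outbred strain, at embryonic day 13.5, pooled by litter. After 48 h in culture they received 0.012 pmol of a commercial negative control siRNA (control), of 4 siRNAs against DNMT3a, or of 4 siRNAs against DNMT3b. At 72 h after transfection they were sorted magnetically for the surface protein VCAM1, and poly(A) RNA was sequenced, with 3 libraries per group. Whether the libraries within a group came from separate cultures is not stated in the labels; a p-value here reflects the spread among 3 libraries per group, and that spread may be technical. All groups went through transfection, and none was left untransfected.

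Cardiac myosin is the motor of the thick filament: a pair of heavy chains, each carrying an essential and a regulatory light chain on its neck. In the mouse, Myh6 encodes the alpha heavy chain, which splits ATP faster and dominates the adult heart, and Myh7 encodes the beta heavy chain, which dominates the ventricle of the fetus. Myl2 and Myl3 encode the ventricular regulatory and essential light chains, and Myl7 and Myl4 their atrial counterparts, which the early ventricle also expresses. Mylk3 is the cardiac kinase that phosphorylates the regulatory light chain.

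The heavy-chain genes also carry microRNAs in their introns, which are shown because they tie the 3 genes together by sequence. The guide strands are given 5′ to 3′ from RefSeq (GRCm38.p6) with the seed, bases 2 to 8, in capitals; all 3 microRNAs of this set were matched.
mmu-miR-208a-3p: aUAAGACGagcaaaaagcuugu
mmu-miR-208b-3p: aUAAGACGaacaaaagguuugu
mmu-miR-499-5p: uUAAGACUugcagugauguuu
The sequence of miR-208a-3p lies at chr14:54949072-54949093 on the minus strand in an intron of Myh6. That of miR-208b-3p lies at chr14:54975710-54975731 on the minus strand in an intron of Myh7, and its seed is the same. That of miR-499-5p lies at chr2:155622893-155622913 on the plus strand in an intron of Myh7b, and its seed shares the leading 6 bases, UAAGAC. Poly(A) libraries do not measure mature microRNAs. The row of the miR-499 hairpin held 0 counts in all 9 libraries, and that of the miR-208a hairpin held 3 to 12.

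Promoter sequence of 4 of the genes is shown because methylation of CG pairs is what the targeted enzymes write, and because Myh6, Myl3 and Mylk3 varied together while Myl7 did not vary with them. These are bases ahead of a RefSeq start site (GRCm38.p6), left off where they run into an annotated exon, with CG pairs in capitals. The Myh6 stretch is chr14:54966642-54966857, minus strand. The Mylk3 stretch is chr8:85381042-85381291, minus strand, and the Myl3 stretch is chr9:110763428-110763645, plus strand. The Myl7 stretch is chr11:5898783-5899032, minus strand.
Myh6: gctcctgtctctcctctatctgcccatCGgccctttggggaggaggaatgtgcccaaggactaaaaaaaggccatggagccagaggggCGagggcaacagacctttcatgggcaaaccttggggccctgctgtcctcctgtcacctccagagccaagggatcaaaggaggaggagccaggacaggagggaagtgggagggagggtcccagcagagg
Mylk3: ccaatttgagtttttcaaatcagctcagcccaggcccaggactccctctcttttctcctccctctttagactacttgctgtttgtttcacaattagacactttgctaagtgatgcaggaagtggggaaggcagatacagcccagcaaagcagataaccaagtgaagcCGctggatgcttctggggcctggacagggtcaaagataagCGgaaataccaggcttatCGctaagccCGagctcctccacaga
Myl3: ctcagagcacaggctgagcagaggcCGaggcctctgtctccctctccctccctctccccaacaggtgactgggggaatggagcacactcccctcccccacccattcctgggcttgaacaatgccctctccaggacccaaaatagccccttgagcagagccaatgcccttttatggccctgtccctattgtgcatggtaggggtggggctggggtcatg
Myl7: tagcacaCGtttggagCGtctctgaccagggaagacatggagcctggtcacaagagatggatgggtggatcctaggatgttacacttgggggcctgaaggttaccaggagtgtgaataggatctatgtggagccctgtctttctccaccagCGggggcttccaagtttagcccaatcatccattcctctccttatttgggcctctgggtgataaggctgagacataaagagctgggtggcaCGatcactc
The 250 bases before these starts held 2 CG pairs in Myh6, 4 in Mylk3, 1 in Myl3 and 4 in Myl7, against a median of 6 over 32851 RefSeq promoter windows of that length. Windows not shown held more in some of the other genes: 23 in Myl4, whose window overlaps exons of another gene, and 1 and 7 at the RefSeq starts of Myl2. A CArG box, the sequence bound by serum response factor, was found in Myl3 and in Myl7, and 1.47% of all windows hold one on either strand. CATTCC, searched on both strands, was found in Myh6, Myl3 and Myl7, and 12.6% of all windows hold it. It also occurs at another RefSeq start of Mylk3 and at 1 of Myh7, both not shown. In the full windows of 250 bases, GATA and CANNTG (N is any base) were found in all 4 genes, as in 53.6% and 66.2% of all windows. The GATA match of Myl3 and the CANNTG match of Myh6 reach into the exonic bases left off, so the stretches shown do not hold them. TATAAA and a MEF2 consensus, in 12.4% and 2.92% of all windows, were found in none of the 4. Such matches are letters in a window and do not show binding, and methylation was not measured in these libraries.

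The siRNAs lowered their targets. Dnmt3a stood at 232 to 275 CPM (counts relative to a common library total, scaled by edgeR's TMM method) in controls and at 40.3 to 52.9 after DNMT3a siRNA. Its log2 fold change was -2.48 ± 0.11 (standard error, n = 3 libraries per group), with adjusted p = 3.42e-06 by edgeR's quasi-likelihood F test with Benjamini-Hochberg adjustment over 16561 genes, the test used for every gene below. Dnmt3b was scarce, at 4.26 to 4.33 CPM in controls, and fell to 1.17 to 2.43 after DNMT3b siRNA, a log2 fold change of -1.34 ± 0.23 (adjusted p = 0.00816). Reads in genes ran from 27852412 to 35896018 per library. Libraries control 2 and DNMT3a 2 stood apart from the others of their groups, with chi-square per degree of freedom of 52.3 to 65.0 against their group's other libraries, compared with 31.5 and 22.0 between the remaining pairs.

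Myosin transcripts rose after either siRNA. With adjusted p under 0.05, 4 of the 8 genes rose after DNMT3a siRNA (Myh6, Myl2, Myl4 and Mylk3), where 10.1% of all genes tested changed in either direction and 4.87% rose. After DNMT3b siRNA the same 4 and Myl3 rose, 5 of 8, where 5.64% of all genes changed and 3.52% rose. None of the 8 fell in either comparison, nor at an unadjusted p under 0.05 by edgeR or by DESeq2 with adjustment. The median log2 fold change of the 8 genes was 1.21 after DNMT3a siRNA and 1.70 after DNMT3b siRNA, against 0.02 and 0.00 over all genes. Every library of the treated group lay above every control library for 5 of the 8 genes after DNMT3a siRNA, as for 14.1% of all genes, and for 6 of the 8 after DNMT3b siRNA, as for 13.8%. After DNMT3a siRNA the count dropped to 2 of 8, Myh6 and Mylk3, without control 3, without DNMT3a 2, without DNMT3a 3, without the filter on low counts or with only the 2 groups in the fit. Without both control 2 and DNMT3a 2, 6 and 7 of the 8 genes rose. In RNA of a mixed cell population, more cells of a type and more RNA per cell cannot be told apart. Both comparisons share the 3 control libraries.

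**Figure D1:**
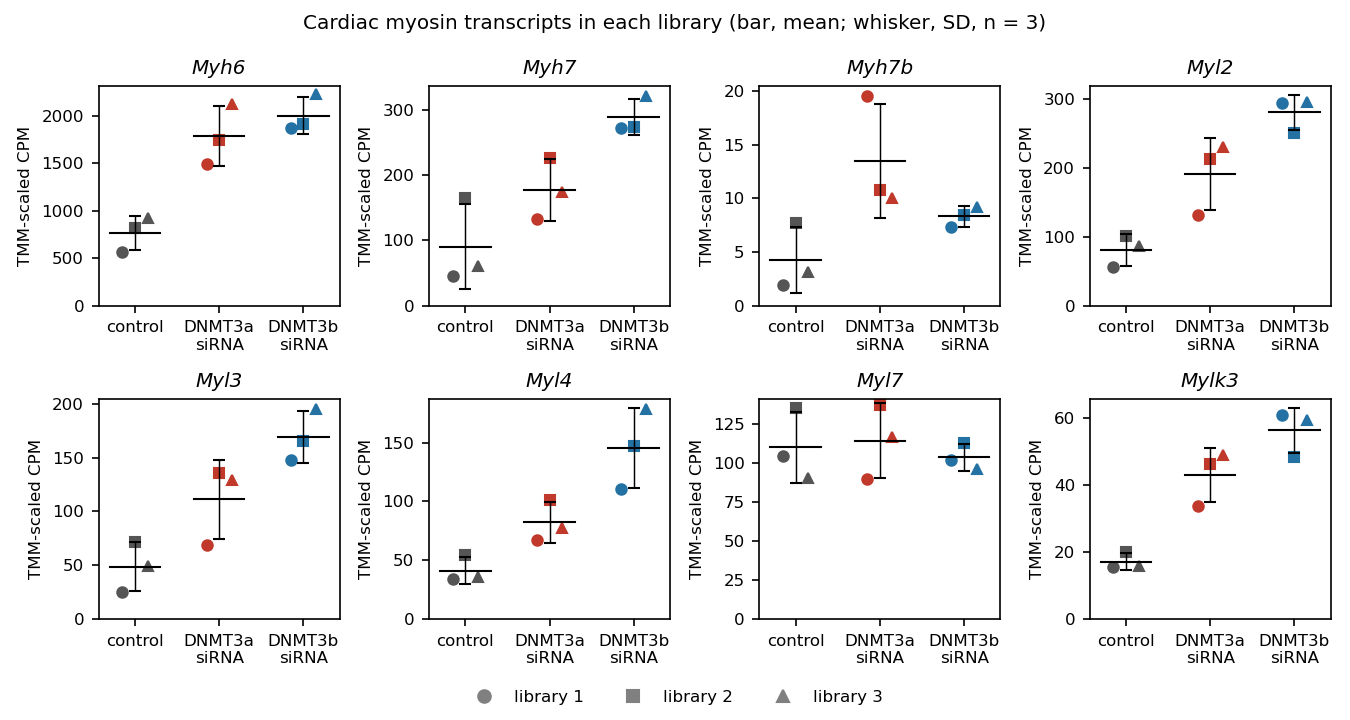
TMM-scaled CPM of each of the 8 genes in the 9 libraries, with the siRNA group on the horizontal axis; bars are means, whiskers are standard deviations over 3 libraries, and point shapes mark the library number. The Myh6 libraries run from 567 to 920.0 in controls and from 1498 to 2235 after either siRNA, while the 3 groups of Myl7 overlap.

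Among the heavy chains, Myh6 was the most abundant and rose most evenly. Its level was 567, 818 and 920.0 CPM in control libraries 1 to 3, 1498, 1743 and 2125 after DNMT3a siRNA, and 1869, 1915 and 2235 after DNMT3b siRNA. Each treated library thus lay above each control, and the treated groups overlapped each other. The means were 768 ± 181, 1789 ± 316 and 2006 ± 199 (SD, n = 3). Myh6 rose 2.33-fold with DNMT3a siRNA (log2 1.22 ± 0.18, adjusted p = 0.00266) and 2.61-fold with DNMT3b siRNA (log2 1.39 ± 0.18, adjusted p = 0.00218).

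Myh7 was lower and less even in the controls. Control 2 held 165 CPM of this beta heavy chain, while controls 1 and 3 held 45.1 and 60.3. After DNMT3a siRNA its level was 132, 227 and 174 CPM, so that 1 treated library lay below control 2. After DNMT3b siRNA it was 273, 274 and 322 CPM, above all controls. The log2 differences, 0.98 ± 0.47 after DNMT3a siRNA (adjusted p = 0.251) and 1.68 ± 0.48 after DNMT3b siRNA (adjusted p = 0.0914), did not pass the threshold. DESeq2 called the DNMT3b difference (log2 1.67, adjusted p = 0.0202). Without control 2 both passed by edgeR, at 1.75 (adjusted p = 0.00262) and 2.46 (adjusted p = 7.27e-04). Without control 2 and DNMT3a 2 they were 1.54 (adjusted p = 0.00122) and 2.46 (adjusted p = 9.41e-05).

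Myh7b, a slow-tonic heavy chain of low abundance in heart, rested on 67 to 602 counts per library. It stood at 1.87, 7.71 and 3.14 CPM in controls, 19.5, 10.8 and 9.98 after DNMT3a siRNA, and 7.29, 8.48 and 9.18 after DNMT3b siRNA. DNMT3a 1 was the highest library, and all 3 DNMT3a libraries lay above the controls, whereas the DNMT3b libraries overlapped control 2. Neither log2 difference passed the threshold (1.67 ± 0.48, adjusted p = 0.0696, and 0.98 ± 0.48, adjusted p = 0.290). Both passed without control 2, at 2.44 (adjusted p = 0.00301) and 1.74 (adjusted p = 0.0150), and DESeq2 called the DNMT3a difference (adjusted p = 0.0214).

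Myh6 and Myh7 lie in tandem on the minus strand of chromosome 14 (GRCm38), Myh7 at chr14:54970684-54994626 and Myh6 at chr14:54941921-54966927, 3756 bases apart. Their annotated transcripts share 1381 stretches of 50 bases, 20.2% of those in Myh6 and 15.6% of those in Myh7, so reads could be lost from both genes as not unique; the read length was not known. The other 6 genes shared no such stretch with any of 29 myosin family genes. Of the exonic bases of Myh7, 13.3% are also exonic in the antisense or overlapping genes Mhrt, Gm29015 and Gm31251. Mhrt, a noncoding RNA antisense to Myh7, had 44 to 186 counts and log2 differences of 1.30 (adjusted p = 0.0187) and 1.25 (adjusted p = 0.0313). Since the strand setting of the counting is not known, reads in the shared bases may have been assigned by strand or left out as ambiguous. How far the rows of Mhrt and Myh7 are separate measurements is therefore not known. The row of the miR-208b hairpin inside Myh7 held 4 to 31 counts, with log2 differences of 1.58 (adjusted p = 0.0423) and 1.60 (adjusted p = 0.0566).

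The light chain genes lie apart from each other (GRCm38): Myl2 at chr5:122100951-122113472, Myl3 at chr9:110741861-110769798 and Myl4 at chr11:104550663-104595753, all on the plus strand, and Myl7 at chr11:5896637-5898782 on the minus strand. Both ventricular light chains were at their highest after DNMT3b siRNA. Myl2, the ventricular regulatory light chain, stood at 55.8, 101 and 87.2 CPM in controls, 131, 213 and 230.2 after DNMT3a siRNA, and 295, 251 and 297 after DNMT3b siRNA. The 3 groups did not overlap one another. Myl2 rose 2.35-fold with DNMT3a siRNA (log2 1.23 ± 0.25, adjusted p = 0.0188) and 3.45-fold with DNMT3b siRNA (log2 1.79 ± 0.26, adjusted p = 0.00616). The DNMT3a call was lost without control 3 (adjusted p = 0.0610), without DNMT3a 2 (0.0603), without DNMT3a 3 (0.0597), without the filter on low counts (0.0791) and with only the 2 groups in the fit (0.0614).

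Myl3, the ventricular essential light chain, stood at 25.6, 71.3 and 49.5 CPM in controls. It reached 68.8, 136 and 129 CPM after DNMT3a siRNA, where DNMT3a 1 lay just below control 2, and 147, 165 and 195 after DNMT3b siRNA, above every other library. It rose 3.47-fold with DNMT3b siRNA (log2 1.80 ± 0.40, adjusted p = 0.0423). That call was lost when any of 7 libraries was left out, all but control 2 and DNMT3a 1, with adjusted p of 0.0607 to 0.157, without the filter on low counts (0.101) and with only the 2 groups in the fit (0.0575). The DNMT3a difference, 1.19 ± 0.39, did not pass (adjusted p = 0.105), but passed with the library number as a block (1.22, adjusted p = 0.0152).

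The atrial light chains did not move alike. Myl4, the atrial essential light chain that the embryonic ventricle also makes, stood at 33.8, 54.5 and 35.4 CPM in controls, 67.4, 102 and 77.7 after DNMT3a siRNA, and 111, 147 and 178 after DNMT3b siRNA. These groups did not overlap. Myl4 rose 3.53-fold with DNMT3b siRNA (log2 1.82 ± 0.25, adjusted p = 0.00468) and 1.99-fold with DNMT3a siRNA (log2 1.00 ± 0.24, adjusted p = 0.0362). The DNMT3a call was lost when any of 5 libraries was left out (controls 1 and 3, DNMT3a 2 and 3, DNMT3b 2), with adjusted p of 0.0623 to 0.121, without the filter on low counts (0.128) and with only the 2 groups in the fit (0.0517).

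Myl7, the atrial regulatory light chain, stood at 104.5, 135 and 90.8 CPM in controls, 89.6, 137 and 117 after DNMT3a siRNA, and 102, 113 and 96.2 after DNMT3b siRNA. The 3 groups overlapped: DNMT3a 2 and control 2 were the highest libraries, and DNMT3a 1 and control 3 the lowest. Its log2 difference was 0.05 ± 0.17 with DNMT3a siRNA (95% interval -0.33 to 0.44, adjusted p = 0.893) and -0.09 ± 0.17 with DNMT3b siRNA (interval -0.47 to 0.30, adjusted p = 0.816). The upper bounds, 0.44 and 0.30, lie below the point estimates of each of the other 7 genes in the same comparison, but some intervals overlap. After DNMT3a siRNA those of Myh7 (-0.12 to 2.08) and Myl3 (0.28 to 2.10) overlap that of Myl7. After DNMT3b siRNA that of Myh7b (-0.13 to 2.085) does. Differences between genes were not tested.

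Mylk3, whose product phosphorylates the regulatory light chain, had the smallest standard errors of the genes that rose. The gene lies at chr8:85324303-85386345 on the minus strand. It stood at 15.6, 19.9 and 15.8 CPM in controls, 33.8, 46.3 and 48.8 after DNMT3a siRNA, and 60.8, 48.3 and 59.3 after DNMT3b siRNA. The treated libraries all lay above the controls, and DNMT3a 3 lay just above DNMT3b 2. Mylk3 rose 2.51-fold with DNMT3a siRNA (log2 1.33 ± 0.16, adjusted p = 6.94e-04) and 3.28-fold with DNMT3b siRNA (log2 1.71 ± 0.16, adjusted p = 3.20e-04).

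**Figure D2:**
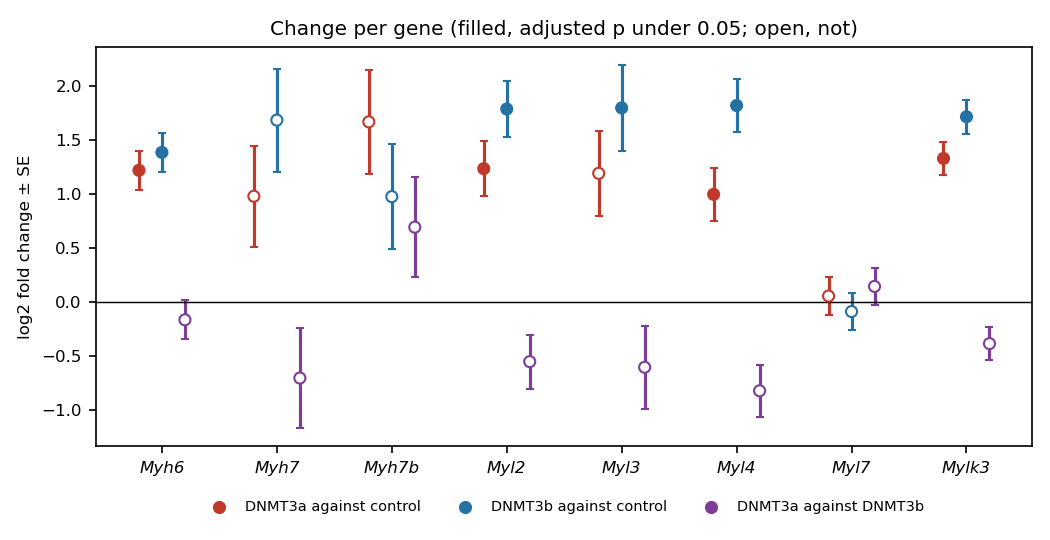
log2 fold change of each gene (points) with its standard error (whiskers) in the comparisons of DNMT3a siRNA with control, DNMT3b siRNA with control and DNMT3a siRNA with DNMT3b siRNA; filled points passed adjusted p under 0.05. Myl7 sits near 0 in all 3 comparisons, and no comparison of the knockdowns with each other is filled.

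The knockdowns were also compared with each other. None of the 8 genes passed by edgeR, where 9.55% of all genes tested did; 2 of the 8 (Myl4 and Mylk3) had an unadjusted p under 0.05, and DESeq2 called 1, Myl4. Myl4 was lower after DNMT3a than after DNMT3b siRNA by a log2 difference of -0.82 ± 0.24 (adjusted p = 0.0690). That difference passed without control 2 (adjusted p = 0.0303), without DNMT3a 2 (0.0497), without both (0.00900) and by DESeq2 (0.00299). The other differences of DNMT3a from DNMT3b siRNA ran from -0.70 ± 0.47 for Myh7 to 0.69 ± 0.47 for Myh7b. For Myh6 the difference was -0.17 with a 95% interval of -0.56 to 0.23, and for Mylk3 -0.39 with an interval of -0.72 to -0.05 (adjusted p = 0.141). Without control 2 and DNMT3a 2, Myh7 also passed (log2 -0.92, adjusted p = 0.00650).

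Levels can be set between genes only per length, here as CPM per kilobase of merged exon. In controls the order of the means was Myl7 at 187, Myh6 at 114, Myl2 at 41.7, Myl3 at 23.9, Myh7 at 10.5, Myl4 at 8.89, Mylk3 at 3.99 and Myh7b at 0.639. Myl7 and Myh6 did not overlap, while Myl2 overlapped Myl3, and Myh7 overlapped both Myl3 and Myl4. After DNMT3b siRNA Myh6 came before Myl7, at 298 against 176, followed by Myl2 at 144 and Myl3 at 82.8. After DNMT3a siRNA Myh6 and Myl7, at 266 and 194, overlapped. The order depends on the length used: per kilobase of coding sequence the control means were 210.0 for Myl7, 154 for Myl2 and 132 for Myh6. Myl4, at 71.2, then lay above Myh7, at 15.5. After DNMT3b siRNA the means per coding length were 532 for Myl2, 345 for Myh6, 277 for Myl3, 251 for Myl4 and 197 for Myl7.

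Ratios within a library do not depend on how libraries are scaled. The ratio of alpha to beta heavy chain, Myh6 to Myh7 per merged exon length, was 16.1, 6.35 and 19.6 in controls, 14.5, 9.85 and 15.7 after DNMT3a siRNA, and 8.78, 8.97 and 8.89 after DNMT3b siRNA. Myh6 was thus the more abundant chain in every library. The DNMT3b libraries lay close together, between control 2 and the other controls. The 3 groups did not differ by an exact permutation test of the F statistic over 1680 assignments, two-sided (p = 0.332, adjusted over 3 ratios 0.498). Without control 2 that test gave adjusted p = 0.0107, and without control 2 and DNMT3a 2 it gave 0.0286, with the ratio lower after DNMT3b siRNA by a log2 difference of -0.999 in both cases. The comparison of this ratio with controls therefore rests on control 2. Between the knockdowns, all 3 DNMT3a libraries lay above all 3 DNMT3b libraries, by 1.47-fold. The exact permutation test gave p = 0.1 there, the smallest that 3 against 3 allows (adjusted over 9 comparisons 0.225).

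The ratio of atrial to ventricular regulatory light chain, Myl7 to Myl2, differed between the groups. It was 6.19, 4.43 and 3.44 in controls, 2.26, 2.13 and 1.68 after DNMT3a siRNA, and 1.14, 1.49 and 1.07 after DNMT3b siRNA. No library of a group overlapped another group. The mean log2 ratio fell from 2.19 ± 0.42 in controls to 1.00 ± 0.23 and 0.29 ± 0.25 (SD, n = 3), so that the ratio was 2.27-fold lower with DNMT3a siRNA and 3.73-fold lower with DNMT3b siRNA. The exact permutation test gave p = 0.00357 for the 3 groups, the smallest it can give (adjusted 0.0107). Between any pair of groups the exact test gave p = 0.1, the smallest that 3 against 3 allows (adjusted over 9 comparisons 0.225). Permuting within library numbers, the exact test gave adjusted p = 0.0833, from a smallest possible p of 0.0278. Without control 2 and DNMT3a 2 the log2 differences were -1.25 and -1.92 (exact test, adjusted p = 0.0286). Whether the ratio exceeds 1 depends on the length: per coding length it was 1.05 to 1.88 in controls, 0.510 to 0.687 after DNMT3a siRNA and 0.326 to 0.453 after DNMT3b siRNA.

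The ratio of atrial to ventricular essential light chain, Myl4 to Myl3, was 0.583, 0.337 and 0.316 in controls, 0.432, 0.329 and 0.266 after DNMT3a siRNA, and 0.332, 0.393 and 0.402 after DNMT3b siRNA. All 3 groups overlapped, and the exact permutation test found no difference (p = 0.743, adjusted 0.743). The level of this ratio too depends on the length. Per coding length it was 0.757 to 1.40 in controls, 0.637 to 1.03 after DNMT3a siRNA and 0.796 to 0.965 after DNMT3b siRNA.

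**Figure D3:**
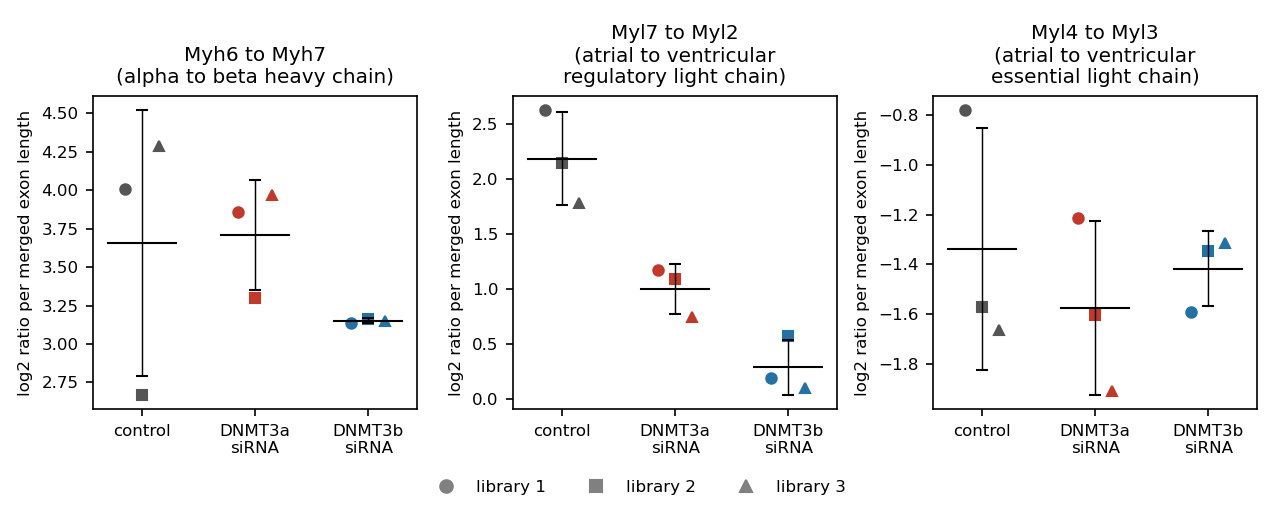
log2 ratios per merged exon length in each library for Myh6 to Myh7, Myl7 to Myl2 and Myl4 to Myl3, by siRNA group; bars are means and whiskers standard deviations over 3 libraries. Only in the Myl7 to Myl2 panel do the 3 groups not overlap, with means of 2.19, 1.00 and 0.29.

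Other genes of heart muscle rose as well. A list of 20 cardiomyocyte genes that are no myosin, such as troponins, alpha-actinin and calcium-store proteins, had 15 rises after DNMT3a siRNA and 17 after DNMT3b siRNA, with 0 falls and 0 members at an unadjusted p under 0.05 downward, or called lower by DESeq2. The median log2 fold changes of this list, 1.24 and 1.67, lay near those of the 8 myosin genes. Their summed level was 5431 to 6552 CPM in controls, 8134 to 10340 after DNMT3a siRNA and 10310 to 11880 after DNMT3b siRNA.

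Set against the summed counts of those 20 genes, the myosin genes moved less, and Myl7 lay lower. Per 100 counts of the 20 genes, Myl7 had 1.92, 2.07 and 1.67 in controls, 1.10, 1.33 and 1.30 after DNMT3a siRNA, and 0.987, 1.07 and 0.810 after DNMT3b siRNA, with no overlap. Mylk3 had 0.287, 0.304 and 0.290 in controls, 0.416, 0.448 and 0.541 after DNMT3a siRNA, and 0.590, 0.456 and 0.499 after DNMT3b siRNA, so treated libraries still lay above the controls. Myh6 had 10.5, 12.5 and 16.9 in controls, and DNMT3a 2, at 16.9, lay just below the highest of them. The separation depends on the reference. Per 100 counts of Tnnt2 alone, Mylk3 in DNMT3a 1, at 2.38, lay below controls 2 and 3, at 2.40 and 2.41. Myl7 per 100 Tnnt2 counts was 11.4 to 16.4 in controls, still above all treated libraries. The knockdowns overlapped there, at 6.30 to 9.89 after DNMT3a siRNA and 5.51 to 7.43 after DNMT3b siRNA. These values are descriptions with no test, and the list holds genes that themselves rose. The sum leans on its most abundant gene, Tpm1, at 2306 CPM in controls. By edgeR, Tpm1 did not pass, with log2 differences of 0.19 and 0.47 (adjusted p = 0.434 and 0.0657). A gene that changed like the median of the list would therefore also lie higher against this sum.

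**Figure D4:**
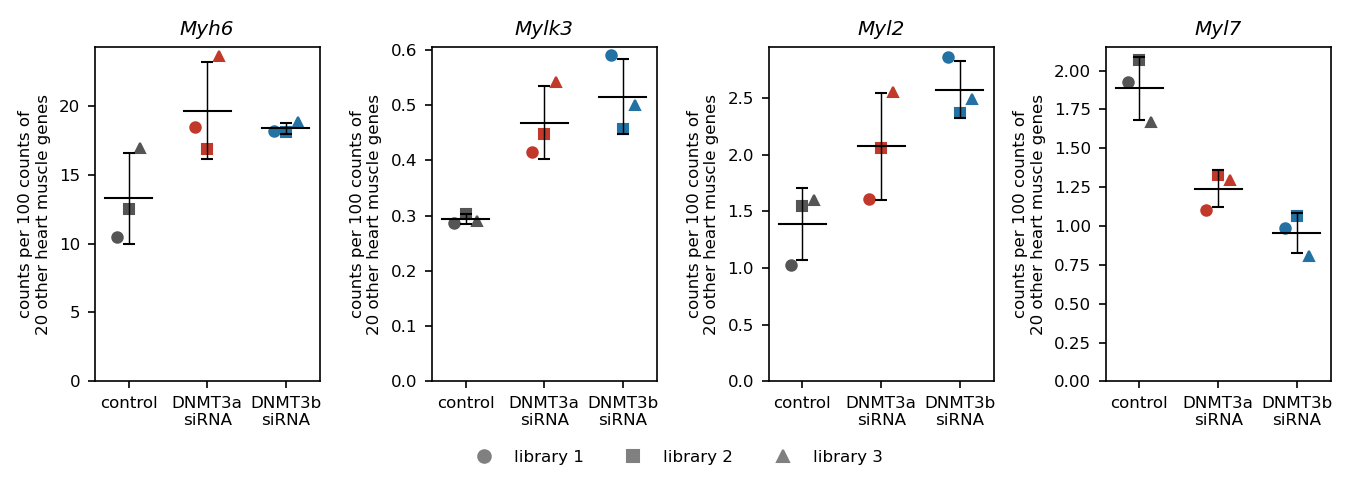
Counts of Myh6, Mylk3, Myl2 and Myl7 per 100 summed counts of 20 other heart muscle genes in each library, by siRNA group; bars are means and whiskers standard deviations over 3 libraries. Myl7 falls from 1.67 to 2.07 in controls to 0.810 to 1.07 after DNMT3b siRNA, while Mylk3 lies above the controls in all 6 treated libraries.

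Most tested thick filament and M-band genes, and some genes listed with myosin folding and assembly, rose too. Of 10 thick filament and M-band genes, 7 were tested. After DNMT3a siRNA 6 rose, and after DNMT3b siRNA 6 rose (median log2 fold changes 1.35 and 1.66). The sets differed: Mybphl did not pass after DNMT3a siRNA (adjusted p = 0.0716), nor Mybpc2 after DNMT3b siRNA (adjusted p = 0.207). Mybpc3, the cardiac myosin-binding protein C, rose 3.61-fold with DNMT3a siRNA (log2 1.85 ± 0.16, adjusted p = 1.44e-04) and 3.55-fold with DNMT3b siRNA (log2 1.83 ± 0.16, adjusted p = 2.59e-04). Ttn, which encodes the giant protein titin that anchors the filament, rose 2.98-fold and 3.67-fold (adjusted p = 0.00628 and 0.00450). Of 9 tested genes on a list of myosin chaperones, assembly factors and muscle ubiquitin ligases, 5 rose after either siRNA. They were Unc45b, a myosin chaperone (log2 1.43 and 1.56), Smyd1, a methyltransferase that binds myosin (1.18 and 1.69), and the ligases Trim54, Trim55 and Trim63. Unc45a, Smyd2, Hsp90aa1 and Hspb1 passed in neither comparison with control.

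Some genes of other myosins and light chain enzymes passed the test against control. Of all genes tested, 10.1% passed after DNMT3a siRNA and 5.64% after DNMT3b siRNA. The lists are short, and a difference from those shares was not tested. Of 9 other sarcomeric myosin genes, mostly of skeletal muscle, 6 were tested, none passed in either comparison by edgeR, 1 and 2 had an unadjusted p under 0.05, and DESeq2 called 1 lower after DNMT3a siRNA. Their summed level was at most 22.3 CPM. Of 9 smooth muscle and non-muscle myosin genes, 1 rose after either siRNA, Myl9, a regulatory light chain of smooth muscle (log2 0.74 ± 0.15, adjusted p = 0.0111, and 0.81 ± 0.15, adjusted p = 0.0108). Of 10 other light chain kinase and phosphatase genes, 1 rose after DNMT3a siRNA, the phosphatase subunit Ppp1r12a (log2 0.31), and 1 after DNMT3b siRNA, its relative Ppp1r12b (log2 0.50). Of these 10, 5 and 3 had an unadjusted p under 0.05. DESeq2 called 1 higher and 1 lower after DNMT3a siRNA, and 2 higher after DNMT3b siRNA. The kinases Mylk and Mylk2 did not pass against control, with log2 differences of 0.17 and -0.76 after DNMT3a siRNA. Mylk2 was lower after DNMT3a than after DNMT3b siRNA (log2 -1.01 ± 0.24, adjusted p = 0.0262).

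Of 24 transcription factors and receptors known to act on cardiac myosin genes, 5 rose after DNMT3a siRNA and 4 rose and 1 fell after DNMT3b siRNA. Nkx2-5, a core cardiac factor, rose in both (log2 1.59 ± 0.11, adjusted p = 3.72e-05, and 1.54 ± 0.11, adjusted p = 5.69e-05). Hopx, which lacks DNA binding of its own, rose by 1.74 and 2.47, Irx4, a ventricular factor, by 1.64 and 1.84, and Myocd, a partner of serum response factor, by 0.69 and 1.00, all on the log2 scale. Tbx3 rose after DNMT3a siRNA (log2 0.75). Sox6, a repressor of slow myosin genes in skeletal muscle, fell by 0.74 on the log2 scale after DNMT3b siRNA (adjusted p = 0.0112). The other 18 factors, among them Gata4, Mef2c and the thyroid hormone receptors Thra and Thrb, passed in neither comparison with control by edgeR. DESeq2 called 6 of the 24 higher after DNMT3a siRNA, and 5 higher and 1 lower after DNMT3b siRNA.

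Chamber markers were read beside the light chains. Of 9 tested atrial genes, 2 rose after either siRNA, Nppa, the atrial natriuretic peptide that the embryonic ventricle also makes (log2 2.08 and 2.24), and Sln, a calcium pump inhibitor of atrium (1.35 and 2.01). Of 10 ventricular genes, 5 rose after DNMT3a siRNA and 4 after DNMT3b siRNA, among them Irx4, Lrrc10 and Pln. Nr2f2, a factor of atrial identity, had log2 differences of -0.05 and -0.11 (adjusted p = 0.798 and 0.551).

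Markers of other cells also differed between groups. The 12 fibroblast and matrix genes summed to 39510 to 59050 CPM in controls, highest in control 2, to 39990 to 43590 after DNMT3a siRNA and to 37690 to 44500 after DNMT3b siRNA, all above the sum of the 20 heart muscle genes. Of them, 4 and 5 fell and 0 rose. The 10 macrophage genes summed to 17.8 to 47.9 CPM in controls, 6.72 to 14.0 after DNMT3a siRNA and 14.3 to 29.9 after DNMT3b siRNA, with 3 falls after DNMT3a siRNA. The 8 epicardial genes summed to 2021 to 2424, 1344 to 1849 and 1383 to 1972 CPM, with 1 rise (Tbx18, log2 0.50) and 3 falls after DNMT3a siRNA, and 1 fall after DNMT3b siRNA. The 10 smooth muscle genes summed to 5920 to 8585 CPM in controls, 8338 to 9451 after DNMT3a siRNA and 8454 to 10070 after DNMT3b siRNA, with median log2 fold changes of 0.38 and 0.52 and 1 rise in each, Myocd. Endothelial genes gave 0 and 1 rises, with medians of -0.03 and 0.95, and skeletal muscle genes 1 in each, Ckm, a creatine kinase also made in heart, with Tnnc2 at 0 in all libraries. Vcam1, the sort marker, had log2 differences of -0.42 (adjusted p = 0.0510) and -0.11 (adjusted p = 0.632). Their part in the myosin results was not tested.

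Across the 9 libraries, 7 of the myosin genes varied together and Myl7 apart. Pearson's r of log2 CPM between those 7 ran from 0.62 to 0.98, and that of Myl7 with them from -0.01 to 0.29. All points share the same 9 libraries and 3 groups, so these values describe the libraries. Among 10822 other protein-coding genes, Smyd1, the myosin-binding methyltransferase, was most like Mylk3 (r = 0.993) and Srl, a sarcoplasmic reticulum protein, most like Myl2 (r = 0.993). Pak6 was most like Myh6 (r = 0.990), followed by Myom1 of the M-band (0.989), and Hdac9 was most like Myl3 (0.989). Svil was most like Myl4 (0.985), Rrad most like Myh7 (0.984) and Dapk3 most like Myh7b (0.976). For Myl7 the highest value was lower, 0.910 with Arrb2.

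**Figure D5:**
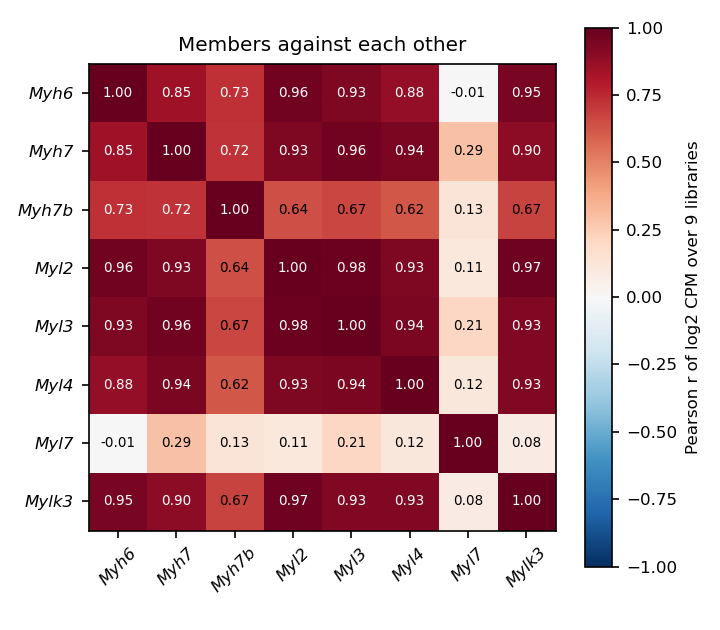
Pearson's r of log2 CPM between the 8 genes over 9 libraries, as a colour from -1 to 1 with each value printed. The row of Myl7 holds values from -0.01 to 0.29 with the other genes, while the other pairs run from 0.62 to 0.98.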

How the data were processed

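RNA-seq was read from 1 table per library, in which the authors deposited whole-number counts of reads per Ensembl gene, not normalised. The submitters' processing notes name FastQC, TopHat2, HTSeq and the mm10/GRCm38 build; versions, annotation release and strand setting were not given. Summary lines (reads not unique, ambiguous or in no gene) held 49.2% to 56.2% of each table and were left out; reads not unique, 36.6% to 42.5%, were counted in no gene. Symbols and exon lengths came from GENCODE (GRCm38), which matched 42462 of 43629 identifiers.

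Genes were kept by filterByExpr (minimum count 10, minimum total 15), leaving 16561. All 9 libraries entered 1 TMM-scaled quasi-likelihood model whose single term was the group (edgeR 4.0.16, R 4.3.3, robust, 6 residual degrees of freedom, biological coefficient of variation 0.154), two-sided, with Benjamini-Hochberg adjustment over all genes and a threshold of 0.05. DESeq2 1.42.0 was an alternative. The standard error is the size of the log2 change over the root of F. Ratios used counts per kilobase of merged exon and exact permutation tests. The scripts were tested on simulated data.

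The genes named were the 8 myosin genes, Dnmt3a, Dnmt3b, Vcam1, Tnnt2, up to 4 changed genes of each list by adjusted p, and for each myosin gene the 3 protein-coding genes (average log2 CPM at least 2) with the highest correlation over the 9 libraries, of which the nearest are given. Other genes were chosen after their values were seen. The members, lists and tests were chosen with earlier results of these data known. Of the lists, 1 gene had no matching symbol.

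Library numbers pair control and DNMT3a libraries by their deviations from the group means, which correlated across genes with r = 0.434, 0.513 and 0.459; what a number marks is not in the labels. For control with DNMT3b libraries r was 0.212, 0.101 and 0.0334, and for DNMT3a with DNMT3b libraries 0.161, 0.0776 and 0.0414. The main model used no pairing in any comparison, so its DNMT3a results against control ignore it too. With the library number as a block, edgeR called 2370 genes after DNMT3a siRNA, against 1671 in the main model. Of the myosin genes it called 5 against 4, with Myl3 added (adjusted p = 0.0152 by the quasi-likelihood F test, against 0.1045). Replicates differed beyond sampling noise in every pair (6.94 to 65.0 chi-square per degree of freedom).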

Additional observations from a re-analysis of the deposited data

How the results depend on the processing

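The fit was repeated under 15 other settings (other scaling, no filter, the replicate block, only 2 groups in the fit, DESeq2, each library left out), and without control 2 and DNMT3a 2 together, a choice made after seeing the data. Myh6 and Mylk3 after either siRNA, and Myl2 and Myl4 after DNMT3b siRNA, kept their direction and their call in all 16. The log2 difference of Myl7 with DNMT3a siRNA ran from -0.112 to 0.229 with a library left out, and turned below 0 without DNMT3a 2 or control 3 (-0.0685). With DNMT3b siRNA it ran from -0.214 to 0.0837, above 0 without control 2, and was 0.0844 without control 2 and DNMT3a 2 together. Between the knockdowns it ran from -0.00539 (without DNMT3a 2) to 0.294 and was -0.00581 without both libraries; none of these passed the threshold.

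Of all genes, 1671 were called after DNMT3a siRNA, and 2370 with the library number as a replicate block. The count was 946 with only the 2 groups compared in the fit, and 868 to 1839 with a library left out. After DNMT3b siRNA 934 were called, 1801 with the library number as a replicate block, 1715 by DESeq2, 2518 without both libraries, and 287 to 1781 with a library left out. Between the knockdowns 1582 were called, 2513 with the replicate block, 2823 without both libraries, and 524 to 1962 with a library left out. With library size alone as scaling, 1019 of 1668 calls after DNMT3a siRNA were rises (61.1%), against 807 of 1671 (48.3%).

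Of the 8 genes, 4 were called after DNMT3a siRNA, and 5 with the replicate block. The count was 2 without the filter, 2 with only the 2 groups in the fit, and 2 to 6 with a library left out. After DNMT3b siRNA 5 were called, and 4 to 7 under the other settings. Between the knockdowns 0 were called, 1 with the replicate block, 1 with only the 2 groups, 1 by DESeq2, 2 without both libraries, and 0 to 1 with a library left out. With the replicate block Myh7 passed after DNMT3b siRNA (adjusted p = 0.0383) and Myl4 between the knockdowns (adjusted p = 0.00727). In every replicate-block fit the sign of all 8 genes was kept.

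By exact permutation, the Myl7 to Myl2 ratio gave adjusted p = 0.0833 when permuted within library numbers as the replicate block. For Myh6 to Myh7 the exact test gave adjusted p of 0.0107 to 0.788 with a library left out and 0.0286 without both libraries. The sign of its DNMT3a difference turned without control 2 (0.0107), DNMT3a 1 (0.536), DNMT3a 3 (0.788) or both libraries. For Myl4 to Myl3 the exact test gave adjusted p of 0.521 to 0.982 with a library left out, and differences turned sign without control 1 (0.582) or DNMT3b 1 (0.729). Myh7b had the fewest counts of the 8 genes, 67 to 602 per library.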
